A study of Sus scrofa with 3 samples.

Results

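The genes described here are 10 marker genes of T cells and natural killer (NK) cells, namely CD3D, CD3E, CD3G, LCK, CD4, CD8A, CD2, PRF1, GZMB and NKG7. They were chosen by name, as genes whose products are carried by these lymphocytes, and all 10 were found among the 22945 mRNA features of the liver data. Liver RNA came from male Chinese Wuzhishan miniature pigs, 6 to 7 months old when they were obtained, which all then received a diet rich in fat and cholesterol (HFC diet) for 12 weeks. Intact males (IM) had a sham operation, kept their testes and received no testosterone injections. Castrated males (CM) were operated on and left without the hormone. Castrated males of the group CMT received 10 mg/kg testosterone propionate by weekly intramuscular injection, from the day of castration on. The RNA of each group was pooled in equal amounts into 1 library. The sample labels name 3 pigs in a pool, while the study's methods give 6 pigs per group. A pool has no spread between animals, so no test between conditions could be run, and every difference below is a difference between 3 libraries. In whole liver, fewer cells of a type and less RNA per cell cannot be told apart.

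T cells recognize antigen with a receptor that signals through the CD3 chains. The kinase LCK phosphorylates these chains once the coreceptor CD4 or CD8 binds the major histocompatibility molecule that presents the antigen. Cytotoxic T cells and NK cells kill target cells by releasing granules that hold the pore-forming protein perforin and the granzymes. The liver is known for a large resident population of both kinds of lymphocyte, and in pigs the CD8 alpha chain is carried by NK cells as well as by T cells.

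The deposited values were FPKM, a level per length of transcript, which allows levels of different genes to be set side by side. The libraries IM, CM and CMT held 32197629, 36126750 and 25419901 reads recovered from these values. For a transcript of 1 kb, 3 reads correspond to 1.195 FPKM in IM, 0.877 FPKM in CM and 1.47 FPKM in CMT. CMT was therefore the shallowest library and CM the deepest. The library divisors behind the deposited values were 2.51, 3.42 and 2.04 in IM, CM and CMT. These are far below the recovered reads counted in units of 1000000. The deposited FPKM are thus higher than values per kb and per 1000000 recovered reads would be. A minimum of 1 FPKM is accordingly less strict here than on that scale. The libraries carried hepatocyte transcripts at very high levels, with ALB (albumin) at 690375, 476360 and 445509 FPKM in IM, CM and CMT, as liver should. All 10 lymphocyte genes reached an FPKM of 1 in every library. Among the 15613 mRNA features that met this minimum, their mean levels ranged from percentile 15.5 for GZMB to percentile 78.1 for NKG7.

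The CD3 chains are the invariant signalling subunits of the T cell receptor and the most specific T cell transcripts of the set. CD3D was measured at 38.8 FPKM in IM, 53.0 FPKM in CM and 24.4 FPKM in CMT, from 172, 320 and 88 reads. CD3E stood at 53.7, 79.7 and 39.0 FPKM in IM, CM and CMT, from 83, 168 and 49 reads. CD3G was at 52.1, 59.8 and 34.3 FPKM, from 142, 222 and 76 reads. Each of these 3 chains was therefore highest in CM and lowest in CMT, with IM in between. LCK, the kinase that starts T cell receptor signalling, was measured at 39.1 FPKM in IM, 60.4 FPKM in CM and 37.8 FPKM in CMT. LCK was high in CM alone, and its levels in IM and CMT lay within each other's 95% Poisson intervals, at 31.9 to 47.4 FPKM in IM and 30.0 to 47.0 FPKM in CMT.

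CD4, the coreceptor of T cells that recognize major histocompatibility class II, was the second highest member. Its levels were 114 FPKM in IM, 120.4 FPKM in CM and 119 FPKM in CMT, from 956, 1374 and 813 reads. These 3 values spanned less than their Poisson intervals, which ran from 107 to 122 FPKM in IM and from 111 to 128 FPKM in CMT. CD8A, the alpha chain of the class I coreceptor, was at 59.5, 82.5 and 33.5 FPKM, from 81, 153 and 37 reads. CD2, an adhesion receptor of T and NK cells, was at 84.9, 117 and 56.5 FPKM, from 218, 408 and 118 reads. CD8A and CD2 thus had the order of the CD3 chains, while CD4 was nearly level across the libraries.

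Among the granule genes, NKG7, which encodes a granule membrane protein of NK and cytotoxic T cells, had the highest level of all 10 members. It was measured at 166 FPKM in IM, 218 FPKM in CM and 151 FPKM in CMT, from 247, 443 and 183 reads. PRF1, which encodes perforin, was at 16.3, 23.4 and 18.3 FPKM, from 94, 184 and 86 reads. GZMB, a granzyme that triggers apoptosis in target cells, was the lowest member, at 10.3, 10.8 and 4.41 FPKM from 23, 33 and 8 reads. NKG7 and PRF1 were high in CM, with IM and CMT close to each other, whereas GZMB was about equal in IM and CM and low in CMT. GZMB lies next to its paralog GZMH in the current pig gene table, and reads that both genes share could have been assigned to either.

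**Figure D1:**
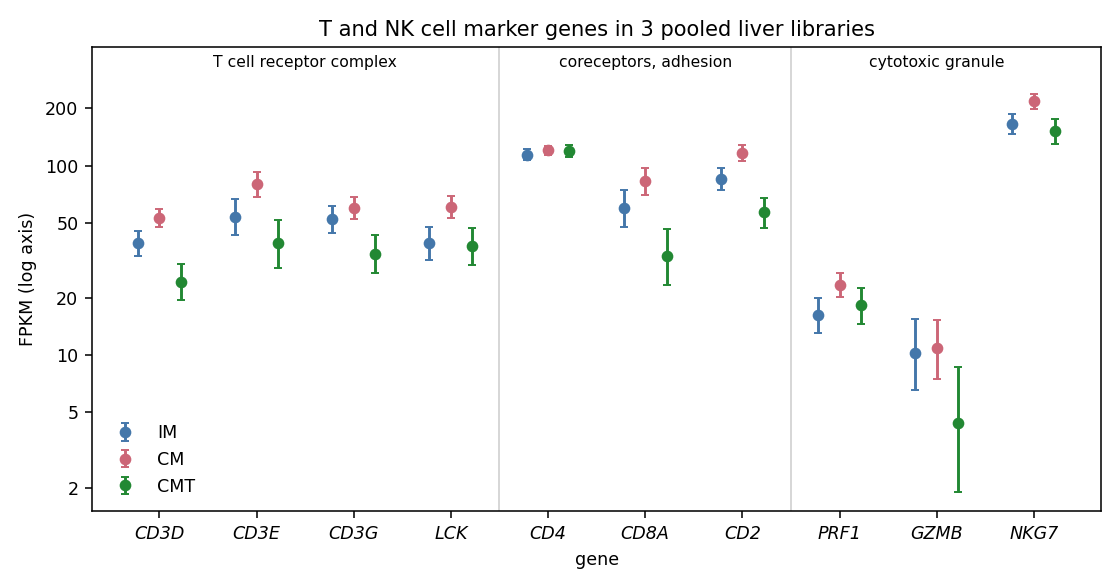
Levels of the 10 genes in the libraries IM, CM and CMT (1 pooled library each), as FPKM on a log axis, grouped by role. Points are the deposited values and bars are 95% Poisson intervals of the recovered reads, which cover counting error only. As deposited, all 10 genes have their highest point in CM (CD3G, CD4, GZMB and PRF1 do not when scaled to the pan-leukocyte list), and 8 of them have their lowest in CMT; CD4 is nearly level.

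The first comparison, CM against IM, addresses castration under the HFC diet. All 10 genes had a higher level in CM as deposited, where 47.97% of the 15613 mRNA features did, although CD3G, CD4 and GZMB were lower in CM when scaled to the pan-leukocyte list. LCK was 1.55-fold higher (95% exact binomial interval from the reads of both libraries, 1.22 to 1.97) and was the only member at or past 1.5-fold, 1 of 10 against a background of 11.1% of all features higher in CM and 12.1% lower. At this fold the members' share was thus that of the background. CD3E just missed the threshold, at 1.49-fold (1.14 to 1.96), and PRF1 was 1.44-fold higher (1.12 to 1.86). CD8A, CD2, CD3D and NKG7 lay between 1.32-fold and 1.39-fold. The median log2 ratio over the 10 genes was 0.45, beside -0.020 over all features. The read interval left out a ratio of 1, with CM higher, for 7 of the 10 genes and for 22.2% of all features with recovered reads. It held 1 for CD3G (0.925 to 1.43), CD4 (0.971 to 1.15) and GZMB (0.600 to 1.88). These intervals cover counting error only and say nothing of the spread between pigs.

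The comparison CMT against CM addresses testosterone replacement in castrated pigs. All 10 genes had a lower level in CMT as deposited, as did 48.53% of the 15613 features, although CD4 and PRF1 were higher when scaled to the pan-leukocyte list. At least 1.5-fold lower were 7 of them, against a background of 13.5% of features lower and 12.1% higher in CMT. CD8A was 2.47-fold lower (1.71 to 3.64), CD3D 2.17-fold (1.71 to 2.78), CD2 2.06-fold (1.68 to 2.55) and CD3E 2.05-fold (1.48 to 2.87). CD3G was 1.74-fold lower (1.34 to 2.29) and LCK 1.60-fold lower (1.23 to 2.09). GZMB was 2.46-fold lower, but with 8 reads in CMT its interval ran from 1.11 to 6.17. Of the 3 genes that did not reach the threshold, NKG7 was 1.44-fold lower (1.21 to 1.73), PRF1 1.28-fold (0.983 to 1.67) and CD4 1.01-fold (0.924 to 1.10). The median log2 ratio over the members was -0.92, beside 0.013 over all features. The interval left out 1, with CMT lower, for 8 members and for 21.6% of all features.

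CMT against IM sets the replaced animals beside intact ones. It shares its libraries with the other comparisons, so the 3 sets of ratios are not independent of each other. Here 5 of the 10 genes were at least 1.5-fold lower in CMT, against a background of 10.1% of features lower and 6.67% higher. They were GZMB (2.34-fold, 1.01 to 6.04), CD8A (1.78-fold, 1.19 to 2.70), CD3D (1.59-fold, 1.22 to 2.08), CD3G (1.52-fold, 1.14 to 2.03) and CD2 (1.502-fold, 1.195 to 1.90), the last of these at the threshold itself. The median log2 ratio was -0.52, beside -0.007 over all features, and the intervals of 5 members left out 1 with CMT lower, as did those of 17.5% of all features. CD3E was 1.38-fold lower, with an interval that held 1 (0.956 to 2.002). NKG7, LCK, CD4 and PRF1 had ratios of CMT to IM of 0.912, 0.968, 1.05 and 1.13, and all 4 intervals held 1.

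**Figure D2:**
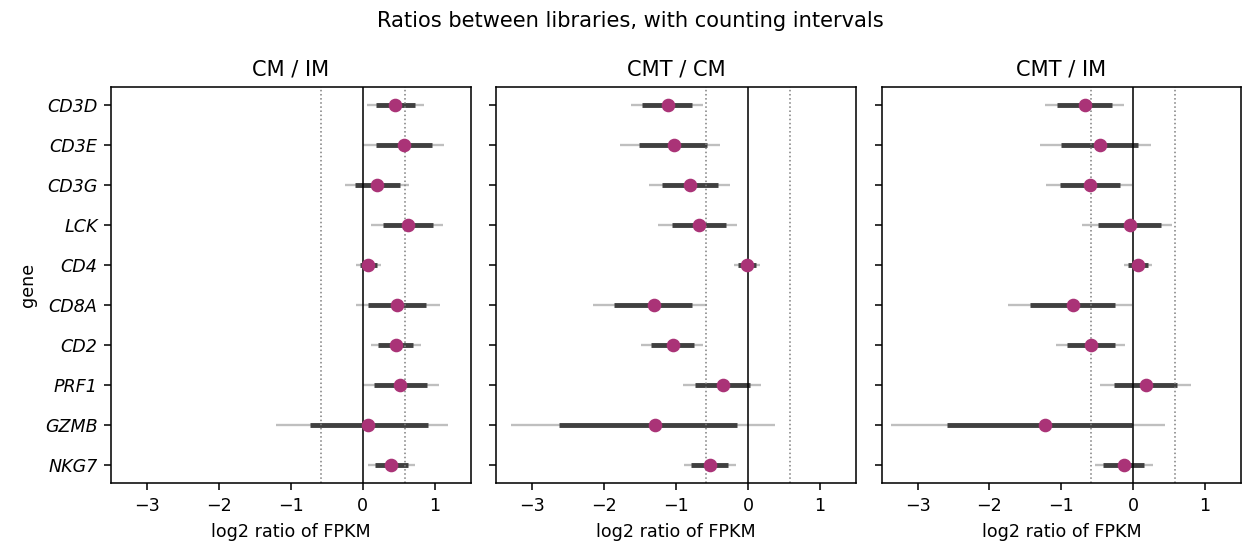
Log2 ratios of FPKM for CM to IM, CMT to CM and CMT to IM, 1 row per gene. Thick bars are 95% exact binomial intervals based on reads, thin bars the same with every read number multiplied by 0.5, and dotted lines mark 1.5-fold. In the middle panel 7 genes lie past the dotted line on the left and CD4 lies at 0.

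Many features had even read numbers, as when both mates of a pair are counted, so each interval was also computed with read numbers multiplied by 0.5, a choice made after seeing the data. The interval of CD8A then held 1 in CM against IM (0.939 to 2.10), leaving 6 members. Of these 6, CD3E had a lower bound of 1.002, and the lower bound of PRF1 lay still closer to 1. The interval of GZMB held 1 in CMT against CM and in CMT against IM, leaving 7 and 4 members. The share of all features was not computed with the smaller read numbers, so these counts have no background beside them.

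By role, the T cell receptor genes CD3D, CD3E, CD3G and LCK had log2 ratios of CMT to CM between -1.12 and -0.68. The granule genes ranged from -1.30 to -0.35, and the coreceptor and adhesion genes from -1.30 to -0.012. The summed level of all 10 genes was 635 FPKM in IM, 825 FPKM in CM and 519 FPKM in CMT. NKG7 and CD4 made up much of each sum. Without them the sums were 355, 486 and 248 FPKM, so that CMT stood 1.96-fold below CM in place of 1.59-fold below.

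Ratios of 2 transcripts within a library do not depend on how libraries are scaled to each other. CD8A relative to CD4 was 0.522, 0.686 and 0.280 in IM, CM and CMT. The value in CMT was 2.45-fold below that in CM (exact conditional interval of the 4 read numbers, 1.68 to 3.64) and 1.86-fold below that in IM (1.23 to 2.86), while CM and IM differed by 1.31-fold with an interval that held 1 (0.984 to 1.77). All 9 other members were lower relative to CD4 in CMT than in CM, by 1.27-fold for PRF1 to 2.45-fold for CD8A, and 8 of the 9 intervals left out 1, or 7 with the smaller read numbers. These pairs were picked after the levels had been seen, so the intervals describe the libraries and are no test of CD4.

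The other members differed less among themselves. CD3D, CD3E and CD3G kept similar proportions to each other. None of the 3 pairs had an interval without 1 in any of the 3 comparisons, and the ratios of ratios lay between 0.772 and 1.19. CD2 relative to the summed CD3 chains was 0.587, 0.606 and 0.578 in IM, CM and CMT. LCK relative to the same sum was 0.270, 0.314 and 0.387, but in CMT against CM the intervals of LCK relative to each of the 3 chains held 1. In CMT against IM LCK was higher relative to CD3D by 1.54-fold (1.02 to 2.31), an interval that held 1 with the smaller read numbers (0.836 to 2.70), and the intervals relative to CD3E and CD3G held 1. The summed granule genes relative to the CD3 chains stood at 1.33, 1.31 and 1.78 in IM, CM and CMT. That higher value came from PRF1 and NKG7, since GZMB relative to the CD3 chains was 0.0712, 0.0563 and 0.0451. In CMT against CM, PRF1 was higher relative to CD3D by 1.70-fold (1.18 to 2.44) and relative to CD3E by 1.60-fold (1.05 to 2.47), and NKG7 relative to CD3D by 1.502-fold (1.11 to 2.04), and the intervals of the other 6 of 9 such pairs held 1. With the smaller read numbers only PRF1 relative to CD3D kept an interval without 1 (1.007 to 2.86).

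CD8B, the beta chain that joins CD8A in the receptor of most cytotoxic T cells, lies next to CD8A in the gene table. Its levels were 11.9 FPKM in IM, 15.1 FPKM in CM and 13.3 FPKM in CMT, from 46, 80 and 42 reads. The order of these levels was not resolved, since the intervals of its ratios held 1 for CM to IM (0.877 to 1.88), CMT to CM (0.591 to 1.29) and CMT to IM (0.721 to 1.75). CD8B relative to CD8A was 0.199, 0.183 and 0.398 in IM, CM and CMT. CD8A was thus 2.17-fold lower relative to CD8B in CMT than in CM (1.25 to 3.77), and with the smaller read numbers the interval held 1 (0.993 to 4.95). Against PTPRC, the common leukocyte antigen CD45 found on all leukocytes, the summed CD3 chains stood at 0.904, 0.986 and 0.580 in the same order. CD4 relative to PTPRC was 0.713, 0.616 and 0.708, with its lowest value in CM. No reads were recovered for PTPRC, so the ratios to it have no interval.

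**Figure D3:**
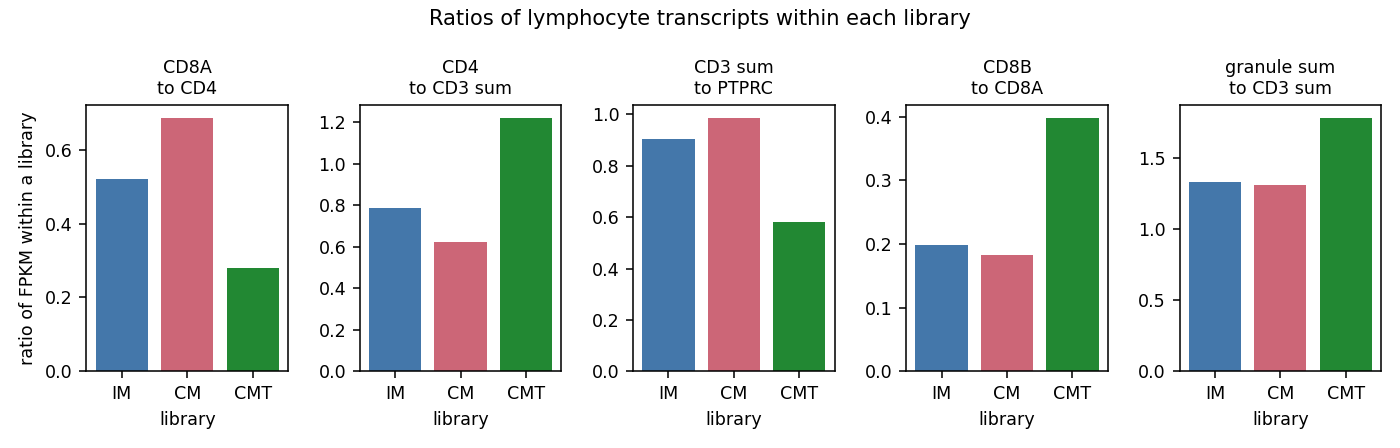
Ratios of FPKM between lymphocyte transcripts within each library (IM, CM and CMT, 1 bar each, axes from 0). CD8A relative to CD4 and the CD3 chains relative to PTPRC are lowest in CMT (0.280 and 0.580), where CD4 relative to the CD3 chains is highest (1.22).

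The values above are as deposited, and the direction of some depends on the scaling. Scaling to the median ratio of all features, or to their upper quartile, moved no member across a ratio of 1. Scaling to the recovered reads moved the median of all features to 0.26 in CM against IM and to -0.23 in CMT against CM. Under it 7 members were at least 1.5-fold higher in CM than in IM, where 21.98% of features were higher and 6.42% lower, and 9 were lower in CMT than in CM, where 22.4% of features were lower and 6.82% higher. Equal column sums gave the same member counts, with 20.8% of features higher and 6.87% lower in CM against IM and 22.9% lower and 6.73% higher in CMT against CM. Scaling to the hepatocyte list gave 8 members higher in CM, with 35.6% of features higher and 4.34% lower, and 8 lower in CMT than in CM, with 17.8% lower and 8.95% higher. In CMT against IM the same scaling set 20.8% of features higher and 4.89% lower, left 1 member lower and turned NKG7 and LCK above a ratio of 1. Scaling to the pan-leukocyte list left 0 members higher in CM, with 5.05% of features higher and 31.6% lower, and put CD3G, CD4 and GZMB below a ratio of 1. It left 5 members lower in CMT than in CM, with 6.69% of features lower and 32.9% higher, and put CD4 and PRF1 above 1. CD3D, CD3E, CD2, CD8A, NKG7 and LCK were higher in CM than in IM and lower in CMT than in CM as deposited and under all 6 scalings. Under the pan-leukocyte scaling, however, their log2 ratios of CM to IM were only 0.026 for NKG7 to 0.26 for LCK. Those of CMT to CM ran from -0.15 for NKG7 to -0.92 for CD8A. No interval was computed for a scaled ratio, so only the sign is described.

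Other genes of the same pathways were read from lists. As a background for this and the following lists, 11.1% of all features were at least 1.5-fold higher and 12.1% lower in CM against IM. In CMT against CM 13.5% were lower and 12.1% higher. Of 23 further genes of T cell receptor signalling, all with an FPKM of at least 1, 5 were at least 1.5-fold higher and 1 lower in CM against IM, and 11 were lower and 1 higher in CMT against CM. Their median log2 ratios were 0.22 and -0.53. ZAP70, the kinase recruited to phosphorylated CD3 chains, stood at 20 FPKM in IM, 36.4 FPKM in CM and 24.2 FPKM in CMT. CD27, a costimulatory receptor, was at 9.81, 18.6 and 8.33 FPKM. Both were thus high in CM, ZAP70 by 1.82-fold over IM (1.46 to 2.29) and CD27 by 1.90-fold (1.39 to 2.62). The adaptor LCP2 was at 87.2, 124 and 87.8 FPKM, and VAV1, an exchange factor, at 103, 134 and 118 FPKM. CTLA4 and CD40LG, the largest ratios in the list, rested on 6 and 8 reads in CM and 1 read in each of the other libraries, with intervals of CM to IM from 0.534 to 203 and from 0.787 to 261.

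CD247, the zeta chain of the T cell receptor complex, was the exception in that list. It was measured at 450.0 FPKM in IM, 296 FPKM in CM and 513 FPKM in CMT, from 1972, 1766 and 1827 reads, and so was far above the CD3 chains in every library. It was 1.52-fold lower in CM than in IM (ratio 0.657, 0.616 to 0.701) and 1.73-fold higher in CMT than in CM (1.62 to 1.85), the opposite order to that of CD3D, CD3E and CD3G. Its log2 ratio of CM to IM was -0.61 as deposited, and the scaling that raised log2 ratios of this comparison the most, to the hepatocyte list, adds 0.46.

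Cytotoxic granule and NK cell genes other than the members numbered 26, of which 23 met the minimum of 1 FPKM. In CM against IM 3 were at least 1.5-fold higher and 1 lower, and in CMT against CM 11 were lower and 0 higher, with median log2 ratios of 0.28 and -0.57. Of all features, 11.1% were higher and 12.1% lower in CM against IM, and 13.5% lower and 12.1% higher in CMT against CM. The count higher in CM was thus near the background share. GZMA, a granzyme of T and NK cells, was at 51.1 FPKM in IM, 82.7 FPKM in CM and 37.4 FPKM in CMT. It was 1.62-fold higher in CM than in IM (1.32 to 1.99) and 2.21-fold lower in CMT than in CM (ratio 0.453, 0.352 to 0.578). CTSW, a protease of cytotoxic cells, was at 167, 192 and 123 FPKM. TYROBP, a signalling adaptor shared by NK cells and myeloid cells, was at 640.2, 766 and 675 FPKM. TNFSF10, the death ligand TRAIL, which is not confined to lymphocytes, had a different order, with 1640 FPKM in IM, 1368 FPKM in CM and 1775 FPKM in CMT.

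Common gamma chain cytokine receptors and their partners, through which T and NK cells receive survival signals, gave 9 genes, of which 8 had an FPKM of at least 1. In CM against IM 0 of the 8 were higher and 1 was lower, and in CMT against CM 4 were lower and 0 higher, with medians of 0.21 and -0.39. IL2RG, the gamma chain itself, was at 87.1, 115 and 71.7 FPKM in IM, CM and CMT. IL2RB, the beta chain used by interleukins 2 and 15, was at 53.9, 60.3 and 29.6 FPKM, with no reads recovered. IL7R, the receptor of naive and memory T cells, was at 16.8, 11.6 and 11.9 FPKM and so did not have its peak in CM.

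Transcription factors of T and NK cells gave 13 genes, of which 11 had an FPKM of at least 1, with 3 at least 1.5-fold higher and 0 lower in CM against IM and 2 lower and 0 higher in CMT against CM, and medians of -0.048 and -0.21. ZBTB7B, the factor of the CD4 lineage, was at 63.8, 109 and 71.4 FPKM. LEF1, a factor of naive T cells, was at 3.68, 5.91 and 1.98 FPKM, from 16, 35 and 7 reads.

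Over these 4 lists, 65 genes met the minimum. The 5 whose log2 ratios of CM to IM and of CMT to CM lay nearest to the medians of the 10 members were SIT1, XCL1, IL15RA, IL2RG and GZMH, at Euclidean distances of 0.14 to 0.24 over the 3 libraries. SIT1, an adaptor of the T cell receptor, was at 26.2, 38.4 and 21.7 FPKM, and XCL1, a chemokine of activated T and NK cells, at 58.7, 73.5 and 36.8 FPKM. IL15RA was at 14.8, 18.5 and 10.6 FPKM. GZMH was at 25.3, 36.6 and 16.6 FPKM, so that the granzyme beside GZMB was 1.45-fold higher in CM than in IM (1.16 to 1.81), while GZMB was 1.05-fold higher.

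Chemokines and receptors that draw T cells into tissue gave 17 genes, with 3 at least 1.5-fold higher and 4 lower in CM against IM, and 4 lower and 2 higher in CMT against CM. Their medians were 0.14 and -0.31. CXCL9 and CXCL10, both ligands of CXCR3, a chemokine receptor of T cells, were at 657, 1257 and 702 FPKM and at 1582, 5085 and 2058 FPKM, each highest in CM. The chemokines CCL3L1 and CCL4 had the opposite order, at 862, 303 and 984 FPKM and at 1271, 559 and 1318 FPKM. The list as a whole thus held both orders.

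**Figure D4:**
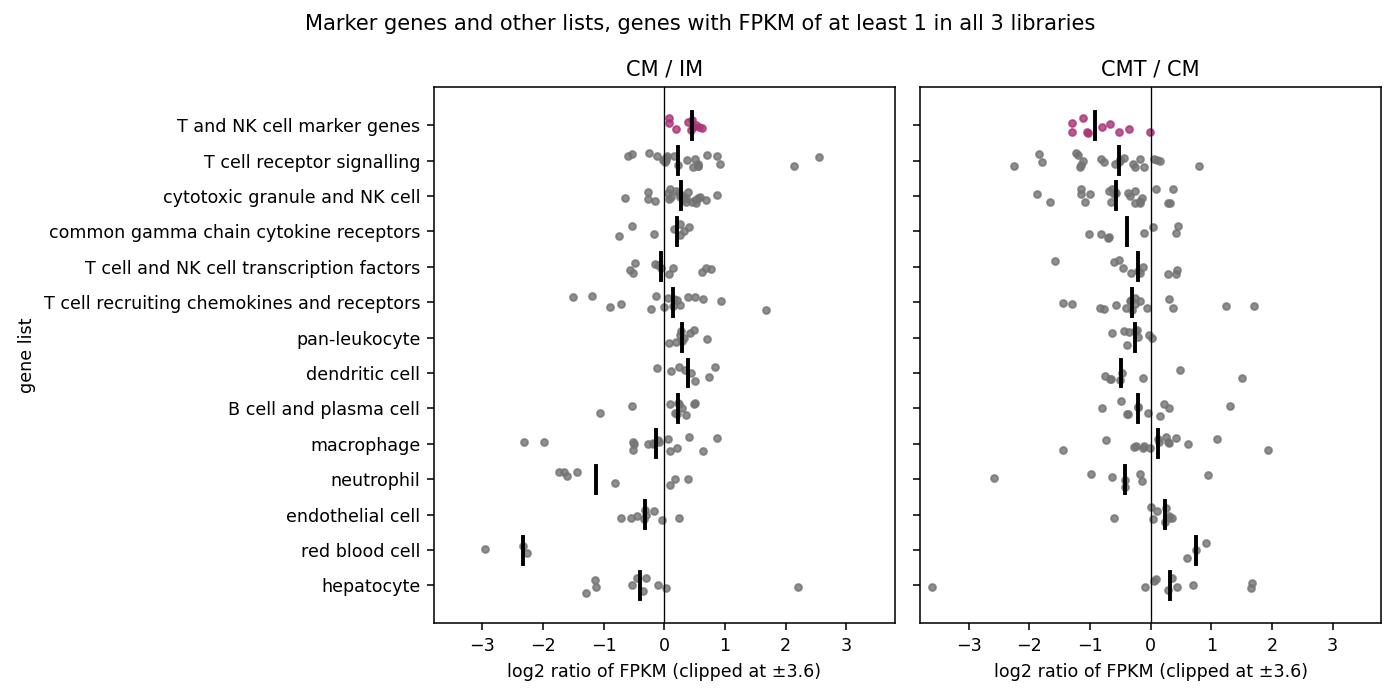
Log2 ratios of FPKM for CM to IM and CMT to CM in the 10 marker genes (top) and 13 other lists, 1 point per gene that reached 1 FPKM in each library, with a black bar at the median. The members' medians are 0.45 and -0.92, and the medians of the red blood cell and neutrophil lists in CM to IM are -2.34 and -1.13, with 3 of 8 neutrophil genes above 0.

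Other cell types were read from marker lists in the same libraries, because liver RNA also holds blood and resident immune cells. The background for counts in these lists was again 11.1% of features higher and 12.1% lower in CM against IM. In CMT against CM it was 13.5% lower and 12.1% higher. All 9 pan-leukocyte genes were higher in CM than in IM, 1 of them at least 1.5-fold, and 8 of 9 were lower in CMT than in CM, 1 of them at least 1.5-fold. Their medians were 0.29 and -0.26, and their summed levels were 1957, 2530 and 1938 FPKM in IM, CM and CMT. The T and NK cell genes and the leukocyte list were thus both highest in CM, and the part of overall leukocyte content in their values was not tested. In CMT against IM the 2 differed, with a sum ratio of 0.991 for the leukocyte list and 0.818 for the members. The B and plasma cell list had 0 of its 11 genes at least 1.5-fold higher and 1 lower in CM against IM, with 1 lower and 1 higher in CMT against CM. Of these 11 genes, 9 were higher in CM than in IM and 7 lower in CMT than in CM, with medians of 0.23 and -0.21, near those of the pan-leukocyte list. Its sums were 311, 297 and 319 FPKM, and their order rested on POU2AF1, without which, a choice made after seeing the data, they were 228, 257 and 219 FPKM. The dendritic cell list had sums of 406, 612 and 438 FPKM, with 2 of 8 higher and 0 lower in CM against IM, and 3 lower and 1 higher in CMT against CM. Its medians were 0.39 and -0.49. CD1A of this list was at 0 in each of IM, CM and CMT.

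Markers of macrophages, at summed levels of 23730, 21925 and 24682 FPKM, had 2 of 16 genes higher and 2 lower in CM against IM, and 2 lower and 3 higher in CMT against CM, with medians of -0.14 and 0.13. Neutrophil markers had sums of 184, 96.3 and 65.9 FPKM, with 0 of 8 higher and 5 lower in CM against IM, and 3 lower and 1 higher in CMT against CM. The neutrophil list was not uniform, since 4 of its 8 genes, S100A8, S100A9, S100A12 and LTF, were highest in IM, CSF3R, CXCR2 and ELANE were highest in CM as the members were, and MPO was highest in CMT. Red blood cell markers had sums of 17296, 3424 and 5195 FPKM, nearly all HBB, the beta chain of haemoglobin, at 17158, 3400.0 and 5151 FPKM. All 3 red blood cell genes above the minimum were lower in CM than in IM and higher in CMT than in CM. The 3 red blood cell genes were thus highest in IM, unlike the T and NK cell genes, and the part of blood in the members' values was not tested. Endothelial markers had sums of 3987, 3263 and 3710 FPKM, with 0 of 9 higher and 1 lower in CM against IM, and 1 lower and 0 higher in CMT against CM, with medians of -0.31 and 0.23. Hepatocyte markers had sums of 1085903, 791182 and 869769 FPKM, with 1 of 10 higher and 3 lower in CM against IM, and 1 lower and 3 higher in CMT against CM, with medians of -0.40 and 0.32. The hepatocyte sum was lowest in CM, where the members were highest, and the part of this difference in their FPKM was not tested. Counted as reads, the members made up 65.8, 97.5 and 60.5 per 1000000 recovered reads in IM, CM and CMT.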

How the data were processed

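Poly(A)-selected liver RNA was sequenced with paired ends by Illumina, 1 library per pool (IM, CM and CMT). The authors mapped the paired-end reads to the pig genome (Sscrofa10.2) with TopHat after quality control with FastQC, without stated versions, and deposited 1 FPKM value per feature and library for 34579 features. The program that counted reads, its use of strand and its annotation are not given in the sources used here.

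FPKM values were compared without rescaling or a pseudocount, over those mRNA features that reached 1 FPKM in every library, at a fold of 1.5. No p-value was computed, since each group had 1 library. The deposited FPKM equals reads divided by transcript length in kb and by a divisor, found to be 2.51 for IM, 3.42 for CM and 2.04 for CMT. The origin of these divisors is not given in the sources used here. The smallest length of up to 10000 bases that made all reads of a feature whole, within 0.0001, was taken, which gave reads for 23093 features, or 95.1% of the 24277 that were not at 0 throughout. A factor common to a gene's reads can be lost, which widens its interval. Among 10944 features of odd recovered length with over 20 reads, 56.4% had even reads in all 3 libraries. Intervals are 95% Poisson, binomial or conditional intervals, all exact, of these reads. PCR copies are not independent molecules, so they cover counting error only. The recovery was also run on simulated reads, drawn from the recovered lengths and read numbers with the same divisors. That run cannot show that these lengths and read numbers are right.

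The 10 members and the 13 other gene lists were chosen with earlier results of these data known. From each list the rule names the 3 genes with the highest mean FPKM and the 2 with the largest log2 ratio of CM to IM in either direction, and from the T and NK cell lists the 5 genes nearest to the members' medians. For lists of other cell types mostly counts and sums are given, and some genes that the rule covers are left out of the text. CD8B, PTPRC and the pairs within a library were added for the members. Alternatives were a pseudocount of 1, an FPKM minimum of 10 or none, a fold of 2, a fold together with the read interval, 6 scalings, leaving out NKG7 and, chosen after seeing the data, read numbers multiplied by 0.5 in the intervals, leaving out NKG7 with CD4, and POU2AF1 left out of the B cell list. Gene neighbours were read from the RefSeq table of Sscrofa11.1, in which all 10 members had 1 entry, and 9 of 10 were in the gene name table. Since the builds differ, no coordinates are given. The tools were scipy 1.17.1, numpy 2.4.6, pandas 2.3.3 and matplotlib 3.10.9 under Python 3.11.15.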

Additional observations from a re-analysis of the deposited data

How the results depend on the processing

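The limits are those of 3 pooled libraries. No paired analysis was possible because each group has 1 library, and leaving out a replicate was not possible for the same reason. Of the 210 single-gene ratios under 7 alternatives, 176 moved by less than their counting interval, 34 moved further, and 0 past 1.5-fold changed direction. Of the 34, 12 came from the hepatocyte scaling, 13 from the pan-leukocyte scaling, 5 from the recovered reads and 4 from equal column sums. The cause was not tested.

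As log2 values, scaled to equal column sums, the recovered reads, the hepatocyte list and the pan-leukocyte list in that order, the summed level of CM against IM was 0.64, 0.66, 0.84 and 0.0078 (0.38 as deposited), and the median ratio was 0.71, 0.73, 0.91 and 0.083 (0.45). In CMT against CM the sum was -0.92, -0.91, -0.81 and -0.28 (-0.67), and the median was -1.16, -1.155, -1.05 and -0.53 (-0.92). In CMT against IM the hepatocyte scaling gave a sum of 0.030 (-0.29), above 0, and a median of -0.20 (-0.52). Without NKG7 the median of CMT against CM was -1.03, and without NKG7 and CD4 the sums were -0.97 in CMT against CM and -0.51 in CMT against IM. The members at least 1.5-fold higher in CM than in IM numbered 0 at a fold of 2 (4.61% of all features), 2 with the median ratio (11.6%) and 7 with the recovered reads (21.98%), in place of 1 (11.1%). Those lower in CMT than in IM numbered 1 at a fold of 2 (3.98%) and 3 with the recovered reads (9.22%), in place of 5 (10.1%). Depth limits GZMB most, with 8 reads in CMT.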

Other observations

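A few further genes of T and NK cells, most of them with few reads, were picked after their values had been seen. IFNG, the interferon of activated T and NK cells, had 10 reads in CM and 0 in IM and CMT. Set against a floor of 3 reads, its FPKM in CM was 2.45-fold the floor in IM and 1.99-fold the floor in CMT. IL2RA, the alpha chain of the receptor for interleukin 2, had 0, 10 and 2 reads in IM, CM and CMT. Its FPKM in CM was 2.45-fold the floor in IM. FOXP3, the factor of regulatory T cells, had 0, 2 and 6 reads, and its FPKM in CMT was 2.46-fold the floor in IM. These folds set a measured value against a floor without an interval, so they are not lower bounds of a ratio. BCL11B, a factor that maintains T cell identity, had 18, 28 and 2 reads, or 2.39, 2.72 and 0.326 FPKM. KLRD1 and KLRG1, receptors of NK cells and cytotoxic T cells, stood at 21.0, 28.6 and 9.10 FPKM and at 17.2, 25.9 and 7.04 FPKM, from 51, 95 and 18 reads and from 18, 37 and 6 reads. Other genes of the same list were not low in CMT to this degree. KLRK1 was at 120, 177 and 117 FPKM, KLRB1 at 49.0, 51.1 and 40.2 FPKM and NCR1 at 13.49, 16.05 and 13.45 FPKM. Their intervals of CMT to IM held 1, as did that of KLRG1 (0.133 to 1.08) but not that of KLRD1 (0.239 to 0.756). HCST was 1.61-fold higher in CMT than in IM (1.02 to 2.55). NCAM1, which marks NK cells in humans, was under 1 FPKM in all 3 libraries, from 3, 3 and 1 reads.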
